A study of Mus musculus with 2 samples.

Results

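The 7 genes described here encode the chains of the receptors for interleukin 3 (IL-3), GM-CSF, stem cell factor (SCF) and interleukin 6 (IL-6). They were chosen by name, as Csf2rb, Csf2rb2, Il3ra, Csf2ra, Kit, Il6ra and Il6st, and all 7 were found among the 23988 genes of the table. The cells were untransformed myeloid progenitors of C57BL/6 mice, obtained from bone marrow by removing cells with lineage markers and kept for 7 days in medium with IL-3, SCF and IL-6. Both libraries, here replicate 1 and replicate 2, belong to that 1 untreated group, and GM-CSF is not among the cytokines that the labels list. The labels name no culture or animal for either library, so it is not known whether the spread between them is technical or between cultures. Markers of several cell types differed between the libraries, as given below. Values are RPKM, the reads of a gene divided by its length and by the library size, which allows genes to be compared per length.

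Cytokine receptors of this kind signal as complexes. For IL-3 and GM-CSF a ligand-specific alpha chain, IL3RA or CSF2RA, joins a beta chain that carries the signal through the kinase JAK2 to STAT5. Mice have a pair of beta chains: CSF2RB serves IL-3, GM-CSF and interleukin 5, and CSF2RB2, the product of a neighbouring gene copy, serves IL-3. KIT, the SCF receptor, is a receptor tyrosine kinase that needs no partner chain, and it marks progenitors and mast cells. IL-6 binds IL6RA, and the complex signals through IL6ST, also called gp130, which acts through JAK1 and STAT3 and is shared with related cytokines.

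The coding sequences of Csf2rb and Csf2rb2 matter for reading their values, because reads from stretches they share cannot be given to either gene with certainty. In the GENCODE vM21 annotation of build GRCm38, the coding sequence without the stop codon had 2688 bases in Csf2rb and 2634 in Csf2rb2. In a global alignment 2503 of 2628 aligned positions were identical, which is 95.2%, beside 66 gap positions. Of all windows of 50 bases in the Csf2rb transcript with the longest coding sequence, 18.4% also occurred in a Csf2rb2 transcript, and 6.96% of windows of 100 bases did. For the Csf2rb2 transcript these shares were 19% and 7.2%. The longest stretch without a difference had 242 bases, at bases 2083 to 2324 of both coding sequences. It is shown because a read lying wholly inside it fits both genes.
Csf2rb and Csf2rb2, shared stretch: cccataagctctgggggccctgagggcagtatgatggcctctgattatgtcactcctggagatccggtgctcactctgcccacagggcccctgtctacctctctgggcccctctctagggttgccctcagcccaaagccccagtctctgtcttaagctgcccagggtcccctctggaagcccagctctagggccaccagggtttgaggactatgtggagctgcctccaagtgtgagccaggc

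The least alike window of 100 positions without gaps held 17 differences, at bases 318 to 417 of the Csf2rb and 321 to 420 of the Csf2rb2 coding sequence. Its differences, in capitals, are what lets reads be told apart.
Csf2rb: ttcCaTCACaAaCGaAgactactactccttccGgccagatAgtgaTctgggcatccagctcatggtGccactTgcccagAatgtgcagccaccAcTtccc
Csf2rb2: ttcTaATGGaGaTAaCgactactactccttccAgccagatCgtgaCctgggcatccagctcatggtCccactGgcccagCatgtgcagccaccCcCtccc
The share of reads that fit both genes thus depends on the read length. No source used here gives the read length or the treatment of such reads, so the values of this pair are uncertain to that extent.

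**Figure D1:**
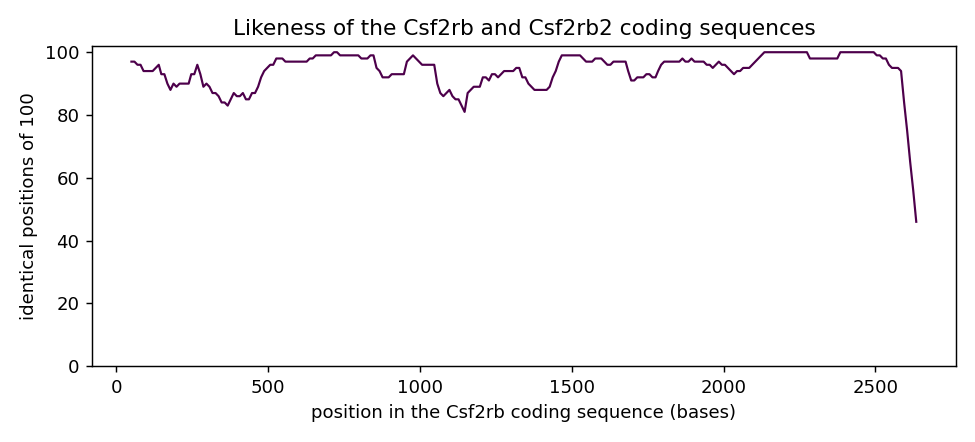
Identical positions of 100 aligned positions, in windows moved by 10, between the coding sequences of Csf2rb and Csf2rb2, plotted at the middle of each window in Csf2rb (bases). In 29 of 260 windows all 100 positions were identical, the median was 96, and the fall at the right end comes from gaps, which count as not identical.

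The beta chain for IL-3 and GM-CSF and the alpha chain for GM-CSF were the most abundant of the 7. Csf2rb had 343 RPKM in replicate 1 and 497 in replicate 2. Csf2ra had 283 and 263 RPKM. Both were among the top 1.4% of all genes in each library, at ranks 246 and 176 for Csf2rb and 301 and 330 for Csf2ra. Csf2rb2, the beta chain for IL-3, followed at 69.8 and 115 RPKM. These 3 genes held 92.3% of the summed RPKM of the 7 genes in replicate 1 and 90.2% in replicate 2. The other 4 genes were lower than these 3 and similar to each other, from 11.5 RPKM for Il6ra in replicate 1 to 26.2 for Kit in replicate 2. They still ranked within the top 24.6% of all genes in each library.

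All 7 genes reached 1 RPKM in both libraries, here called detected, as did 43.5% of all genes. The 7 also reached 10 RPKM in both, as did 24.8% of all genes, and Csf2rb and Csf2ra reached 100 RPKM in both, as did 3.6%. The sum of the 7 was 754 RPKM in replicate 1 and 971 in replicate 2, or 0.123% and 0.158% of the summed RPKM of all genes. In these bulk samples, fewer cells with a transcript and less of it per cell cannot be told apart.

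**Figure D2:**
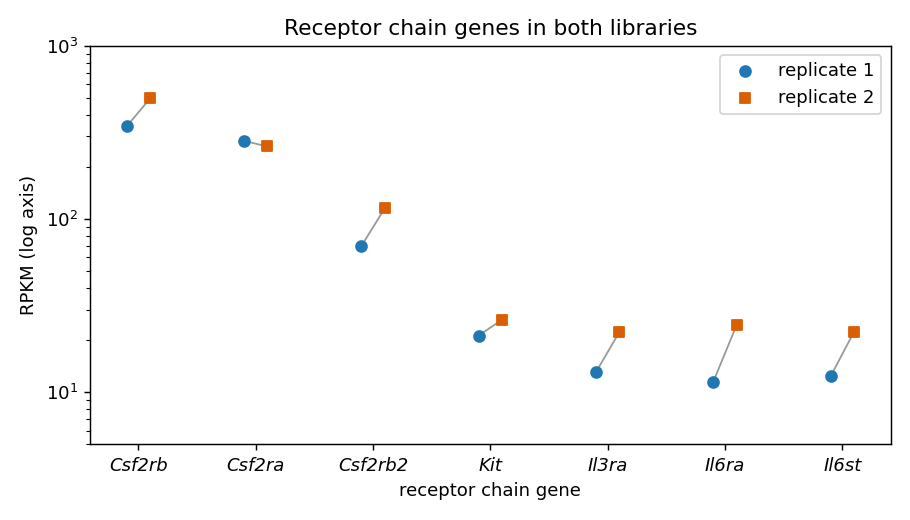
RPKM of the 7 receptor chain genes on a log axis, with a circle for replicate 1 and a square for replicate 2, in the order of their mean level. Csf2rb, Csf2ra and Csf2rb2 lie at 69.8 RPKM or more in both libraries, the other 4 at 26.2 or less, and 6 of 7 genes are higher in replicate 2.

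Among the IL-3 receptor genes, the beta chains far exceeded the alpha chain. Il3ra, the chain that gives the receptor its specificity for IL-3, had 13.1 RPKM in replicate 1 and 22.3 in replicate 2. Csf2rb was thus 26.3 times and 22.3 times Il3ra. On the log2(RPKM + 1) scale the difference was 4.52 ± 0.14 (SD, n = 2). A difference is called beyond the spread here where both libraries gave the same sign and the mean exceeded 2 SD, and this one was. That spread is between the libraries only. An error that acts alike in both, as from gene length or shared reads, is not part of it. By the smallest read numbers described below, Il3ra had 1192 reads at 22.3 RPKM in replicate 2, and Kit 1193 at 26.2. If these are the true numbers, the length used for Il3ra exceeded that for Kit. Their transcripts with the longest coding sequence have 2315 and 5214 bases in GENCODE vM21. Il3ra may thus be understated and its differences from other chains overstated, which was not tested. No test was run, because with 2 libraries the smallest p that flipping signs can give in an exact permutation test is 0.5.

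The ratio of the beta genes to each other was similar in both libraries. Shared reads assigned alike in both would not widen its SD, so the SD does not cover that uncertainty. Csf2rb was 4.92 times Csf2rb2 in replicate 1 and 4.31 times in replicate 2, a difference of 2.19 ± 0.13 (SD, n = 2) that was beyond the spread. Csf2rb held 83.1% of the RPKM of the pair in replicate 1 and 81.2% in replicate 2. Of the RPKM of all 7 genes, the pair held 54.8% and 63.1%.

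The alpha chain for GM-CSF, a cytokine the labels do not list for the medium, was far above that for IL-3. Csf2ra was 21.6 times Il3ra in replicate 1 and 11.8 times in replicate 2, a difference of 3.92 ± 0.59 (SD, n = 2) on the log2 scale, beyond the spread. Against its own beta chain, Csf2ra was close. Csf2rb exceeded it 1.21 times in replicate 1 and 1.89 times in replicate 2, and the difference, 0.60 ± 0.45 (SD, n = 2), was within the spread.

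The 2 chains of the IL-6 receptor were at almost the same level. Il6ra, the IL-6 binding chain, had 11.5 RPKM in replicate 1 and 24.5 in replicate 2. Il6st, the signalling chain, had 12.4 and 22.4 RPKM. Il6st was the higher of the pair in replicate 1 and Il6ra in replicate 2, with a difference of -0.02 ± 0.16 (SD, n = 2) for Il6st minus Il6ra. The shared chain for IL-3 and GM-CSF exceeded the shared chain of the IL-6 family by 4.55 ± 0.19 (SD, n = 2) for Csf2rb minus Il6st, which was beyond the spread.

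Kit had 21.2 RPKM in replicate 1 and 26.2 in replicate 2, the highest of the 4 lower genes in each library. Its difference was 0.44 ± 0.31 (SD, n = 2) from Il3ra and 0.46 ± 0.52 from Il6ra, both within the spread. In the order of mean log2 level, Csf2rb and Csf2ra were not separated beyond the spread. Csf2ra and Csf2rb2 were, by 1.59 ± 0.58 (SD, n = 2), as were Csf2rb2 and Kit, by 1.88 ± 0.30. No neighbours among Kit, Il3ra, Il6ra and Il6st were.

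**Figure D3:**
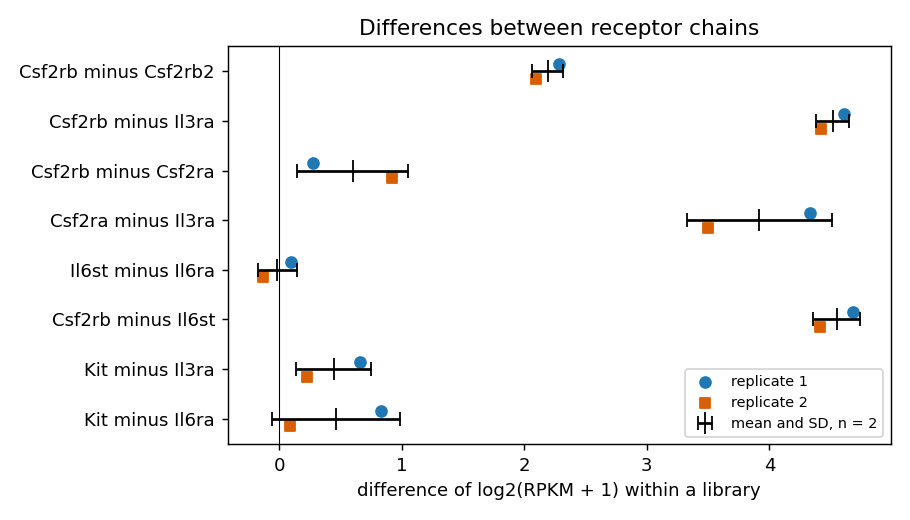
Difference of log2(RPKM + 1) between named pairs of chains within a library, with circles for replicate 1, squares for replicate 2, and a tick and bars for the mean and SD (n = 2). Of the 8 pairs, 4 differ beyond the spread, and these are the pairs with means from 2.19 to 4.55.

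Of the 7 genes, 6 were higher in replicate 2, and 4 of them by 1.5-fold or more on the log2(RPKM + 1) scale. These 4 were Il6ra, Il6st, Il3ra and Csf2rb2, with log2 ratios of replicate 2 over replicate 1 of 1.03, 0.81, 0.73 and 0.72. Among the 10896 genes with a mean of 1 RPKM or more, 11.3% were that much higher in replicate 2 and 4.26% that much lower, and 44.1% had a ratio above 0. Where ratios are compared, here and below, all genes are those with a mean of 1 RPKM or more, while shares detected are over 23988 genes. At 2-fold, Il6ra alone of the 7 genes was past the limit, as were 5.3% of all genes. With the libraries scaled to 8 reference genes, the numbers of all genes past 1.5-fold were 1043 higher and 801 lower, against 1234 and 464 as deposited. Scaled to the same median ratio, they were 1390 and 319. The median log2 ratio was 0.72 over the 7 genes and -0.05 over all genes. Each side is 1 library, so these differences have no replicate check and no p-value. The 7 genes were also chosen with earlier results of these data known.

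The size of the difference was uneven among the 7. Csf2rb had a log2 ratio of 0.53, just under the 1.5-fold limit, and passed it at 0.61 when the libraries were scaled to the same median ratio. Kit had 0.29. Csf2ra, at -0.11, was the 1 gene that was lower in replicate 2. The ratio of Il6ra was at or above that of 95% of all genes, that of Kit at or above 78.3%, and that of Csf2ra at or above 43.5%. The share of Csf2ra in the RPKM of the 7 was 37.5% in replicate 1 and 27% in replicate 2.

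The reads behind each value set its counting error. The smallest whole read numbers that fit both values of a gene were lowest for Il6ra in replicate 1, at 187 reads. They were highest for Csf2rb in replicate 2, at 26479. The true numbers may be multiples of them, and for Csf2rb, whose numbers are large, the match may be accidental. With the smallest numbers, the RPKM ratio of replicate 2 over replicate 1 was 2.14 for Il6ra (95% interval 1.79 to 2.56, exact Clopper-Pearson). It was 1.65 for Csf2rb2 with an interval of 1.58 to 1.73, and 0.928 for Csf2ra with an interval of 0.889 to 0.969. Kit, at 1005 and 1193 reads, had a ratio of 1.23 with an interval of 1.13 to 1.34. The intervals cover counting error only and say nothing of the spread between cultures. They also hold on the deposited scale alone. Scaled to the same median ratio, the log2 ratio of Csf2ra was -0.04, against -0.11 as deposited.

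**Figure D4:**
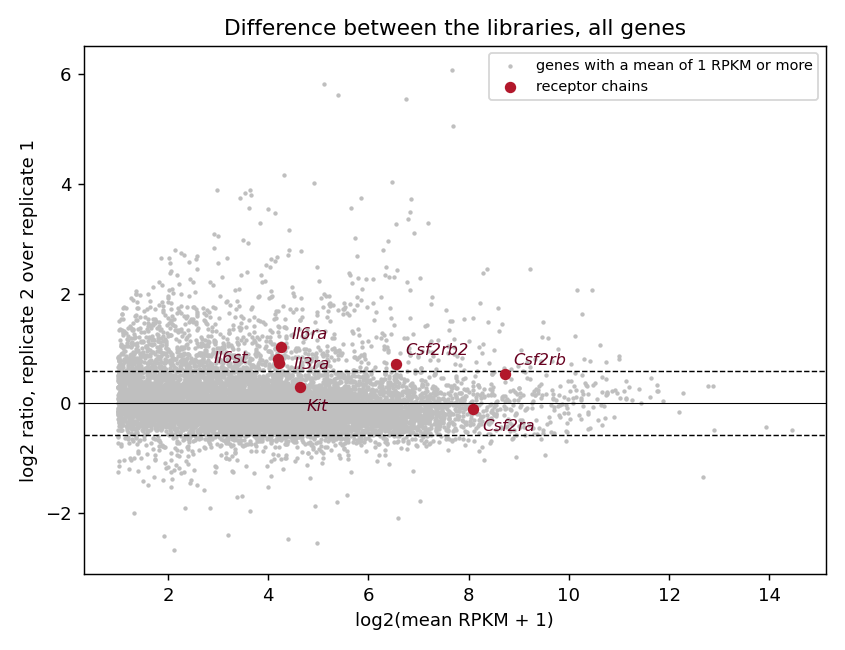
Log2 ratio of replicate 2 over replicate 1 against log2(mean RPKM + 1), with 10896 genes in grey, the 7 receptor chain genes in red and dashed lines at 1.5-fold. Il6ra, Il6st, Il3ra and Csf2rb2 lie above the upper line, Csf2rb just under it, and Csf2ra just under 0.

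Markers of several cell types also differed between the libraries. The summed RPKM of 8 mast cell genes was 52.3 in replicate 1 and 486 in replicate 2. Of the 8, 3 were detected in both, beside 43.5% of all genes, the share to set beside each count of detected genes here. They were Cma1 at 3.55 and 211 RPKM, Gzmb at 21.4 and 93.7, and Slc18a2 at 26.5 and 32.9. Mcpt4 stood at 0.195 and 67.0 RPKM and Tpsb2 at 0.666 and 80.9. Tpsab1, Mrgprb1 and Mrgprb2 were under 1 RPKM in both libraries. The summed RPKM was 764 and 3516 for 8 genes of monocytes and macrophages, all detected, and 1024 and 2014 for 5 basophil genes, all detected. Lyz2 held 442 and 1853 RPKM of the former and Mcpt8 668 and 1567 of the latter. All 8 and all 5 of these genes were higher in replicate 2, as were 44.1% of the 10896 genes with a mean of 1 RPKM or more. Mcpt11, of the 6 basophil genes listed, was not found. For 8 neutrophil genes, all detected, the summed RPKM was 57054 and 46854, mostly from S100a8 and S100a9. The median of the 8 was 1606 RPKM in replicate 1, against 1965 in replicate 2. Of them 3, Ngp, Ltf and Camp, were higher in replicate 2, beside 44.1% of the 10896 genes. Camp alone was past 1.5-fold, beside 11.3% of the 10896 genes that were higher. Kit is also a gene of mast cells and the IL-3 receptor genes are used by basophils, and the part of these cells in the differences was not tested. Defining markers of lymphoid cells were at or near 0. Of 5 B cell genes Cd79b alone was detected, Pax5 and Ms4a1 being listed at 0, and of 5 T and NK cell genes none was, Cd3e and Ncr1 being listed at 0. Of the 6 stem cell genes, Procr, Hlf and Cd34 were detected, Cd34 being the highest at 14.5 and 19.5 RPKM. The remaining lists summed to 99.0 and 71.5 RPKM for 4 eosinophil genes, 44.6 and 69.9 for 5 megakaryocyte genes, 596 and 445 for 6 erythroid genes, and 197 and 157 for 5 genes of stroma and endothelium. The last pair of lists rested on Tfrc and Pecam1, which proliferating and myeloid cells also express, and the haemoglobin genes Hba-a1 and Hbb-b1 were listed at 0.

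Of the 5 ligand genes of these receptors, Il6 alone was detected in the cells themselves, beside 43.5% of all genes. Il6 had 18.0 RPKM in replicate 1 and 29.2 in replicate 2, a log2 ratio of 0.67, and it is also among the 5 basophil genes above. The other 4 of the 5 ligand genes, Il3, Csf2, Il5 and Kitl, had at most 0.125 RPKM in either library, and Il3 was listed at 0 in both. An exact 0 need not mean that a gene is silent, since it may come from the counting.

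Receptor chains that pair with CSF2RB or IL6ST for other cytokines were low. Il5ra, the alpha chain for interleukin 5, stood at 0.936 and 0.951 RPKM, so of the 3 alpha chains that use CSF2RB it was the lowest in each library. Of the 6 genes of this list 2 were detected, beside 43.5% of all genes. They were Il11ra1, for interleukin 11, at 7.72 and 7.35 RPKM, and Il27ra, for interleukin 27, at 2.23 and 5.57. Il11ra1 has a close gene copy in some mice, so its reads may be shared. Lifr, the receptor chain for leukaemia inhibitory factor, stood at 0.596 and 2.91 RPKM, and Osmr and Cntfr were listed at 0. Of the 3 genes of this list with a mean of 1 RPKM or more, Il27ra and Lifr were higher by 1.5-fold in replicate 2, beside 11.3% of all genes.

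Of the 4 receptor kinase genes of the same class as Kit, Csf1r and Pdgfrb were detected, beside 43.5% of all genes. Csf1r, the receptor of the macrophage growth factor M-CSF, had 22.0 RPKM in replicate 1 and 71.0 in replicate 2, a log2 ratio of 1.65. It was thus level with Kit in replicate 1 and above it in replicate 2. Flt3, a receptor of early progenitors, stood at 0.0904 and 1.11 RPKM, Pdgfrb at 3.18 and 2.94, and Pdgfra at 0 and 0.0396.

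All 14 genes for kinases, STATs and adaptors next to the receptors were detected, as were 43.5% of all genes. None was past 1.5-fold in either direction, beside 11.3% of all genes that were higher in replicate 2 and 4.26% lower. Jak1, which acts with gp130, stood at 132 and 154 RPKM, Grb2, an adaptor of the RAS pathway, at 107 and 132, and Ptpn11, the phosphatase SHP2, at 103 and 79.3. Jak2, the kinase of the beta chain, stood at 25.1 and 36.5 RPKM, and the STAT5 genes at 11.6 and 11.1 for Stat5a and 25.5 and 31.6 for Stat5b. Csf2rb, Csf2ra and Csf2rb2 were thus above Jak2 per length of gene, and Kit, Il3ra, Il6ra and Il6st below it, in each library. The median log2 ratio of the list was 0.14.

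All 11 negative regulators were detected, as were 43.5% of all genes. Cish, a feedback inhibitor induced by STAT5, stood at 104 and 115 RPKM, Ptpn6, the phosphatase SHP1, at 77.8 and 77.2, and Dok2, an adaptor that restrains RAS signalling, at 51.2 and 72.4. Socs3, the feedback inhibitor that binds gp130, had 15.5 RPKM in replicate 1 and 57.5 in replicate 2, a log2 ratio of 1.83. Socs2 stood at 3.69 and 6.69 RPKM with a log2 ratio of 0.71. These 2 of the 11 were past 1.5-fold, both higher in replicate 2, as were 11.3% of all genes, and the list median was 0.19.

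The 9 genes listed as targets of these cytokines were all detected, as were 43.5% of all genes. All 9 were higher in replicate 2, as were 44.1% of the 10896 genes with a mean of 1 RPKM or more. Whether signalling from the receptors differed was not tested. Of the 9 genes, 5 were higher by 1.5-fold or more, as were 11.3% of the 10896 genes. The 5 were Egr1 and Fos, immediate early transcription factor genes, Osm, which encodes the cytokine oncostatin M, Pim1, a survival kinase, and Mcl1, an inhibitor of cell death. Egr1 had 7.06 RPKM in replicate 1 and 106 in replicate 2. Fos had 18.0 and 91.0 RPKM. Osm stood at 39.2 and 132 RPKM, Pim1 at 246 and 483, and Mcl1 at 160 and 265. Id1, an inhibitor of differentiation factors, had 126 and 161 RPKM. It had, with Bcl2l1, Myc and Ccnd2, log2 ratios from 0.27 to 0.42. The list median was 0.72.

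Adam10 and Adam17, proteases that release the outer part of IL6RA and KIT from the cell surface, were both detected, at 34.1 and 38.5 RPKM and at 17.3 and 25.3. Of the 6 transcription factor genes known to act on Kit all were detected, led by Lyl1 at 226 and 204 RPKM, Gata2 at 119 and 158 and Lmo2 at 110 and 73.8. Mitf, the factor of mast cells and pigment cells, stood at 3.76 and 7.74 RPKM. It was the 1 gene of that list past 1.5-fold, beside 11.3% of all genes that were higher in replicate 2. Over all 8 lists, 47 of 57 genes were detected, or 82.5%, beside 43.5% of all genes. Of the 48 with a mean of 1 RPKM or more, 12 were higher in replicate 2 by 1.5-fold, or 25%, beside 11.3% of all genes. None was that much lower. Of the 12 genes, 5 were in the target list and none in the signalling list. The lists were chosen with earlier results of these data known, so these shares are no test of the pathway.

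**Figure D5:**
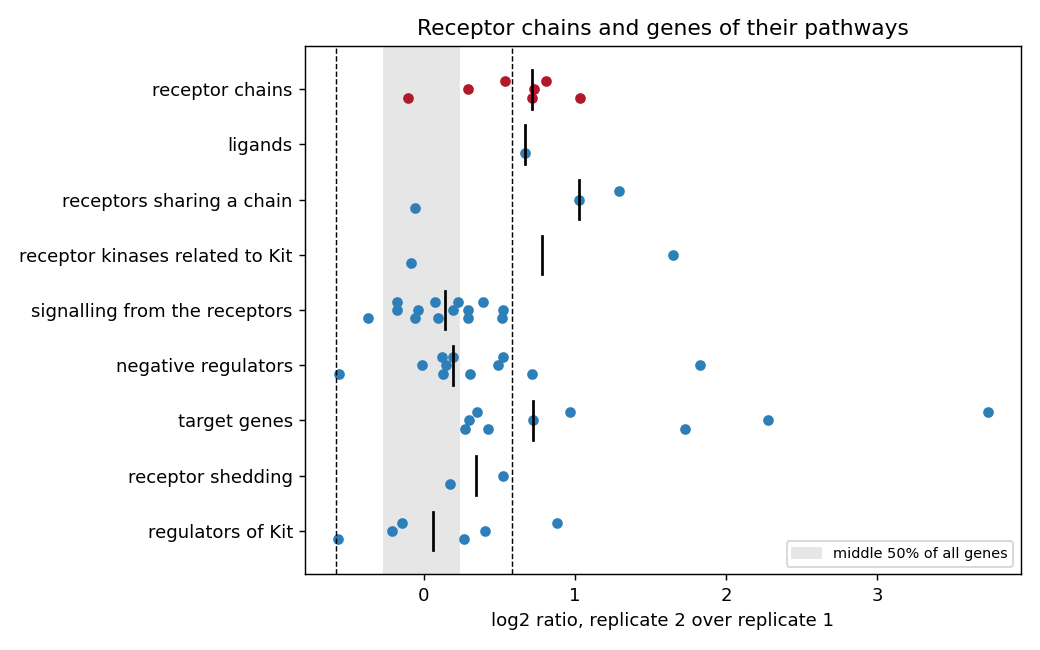
Log2 ratio of replicate 2 over replicate 1 for the receptor chains (red) and the genes of 8 pathway lists (blue) with a mean of 1 RPKM or more, with a black line at each list's median, dashed lines at 1.5-fold and the middle 50% of all genes shaded. The targets reach from 0.27 to 3.73, while all 14 signalling genes lie between the dashed lines.

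Promoter sequence was compared because the levels of the 7 genes ranged widely. RefSeq entries of build GRCm38.p6 gave 250 bases before the transcription start for 6 of the 7 genes, and Csf2rb had none. The submitters' notes name build mm9, so the positions below belong to the reference alone. Both strands were searched for GATAA (the core of GATA factor sites), AGGAAG (of ETS factors such as PU.1), TGTGGT (of RUNX factors) and TTCNNNGAA (of STAT factors). Of 32536 different promoter sequences of that length, 22.5%, 29.6%, 14% and 7.04% held them. AGGAAG was present in 5 of the 6 promoters, all but that of Il6st, GATAA in those of Csf2rb2 and Il6ra, and TTCNNNGAA in that of Csf2rb2. TGTGGT was in none of the 6. A match is a run of letters and not a measured binding site.

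The promoters shown are those with matches to more than 1 motif or with a repeated match. Capitals mark the matches, and a match on the opposite strand appears as its reverse complement, such as TTATC for GATAA. That of Csf2rb2 lies at chr15:78305722-78305971 on the minus strand, that of Il6ra at chr3:89913197-89913446 on the minus strand, and that of Csf2ra at chr19:61228419-61228668 on the minus strand.
Csf2rb2: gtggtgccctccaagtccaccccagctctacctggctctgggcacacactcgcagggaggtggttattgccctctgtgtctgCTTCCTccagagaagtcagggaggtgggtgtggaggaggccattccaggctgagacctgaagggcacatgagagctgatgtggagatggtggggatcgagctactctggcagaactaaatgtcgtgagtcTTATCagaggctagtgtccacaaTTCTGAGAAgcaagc
Il6ra: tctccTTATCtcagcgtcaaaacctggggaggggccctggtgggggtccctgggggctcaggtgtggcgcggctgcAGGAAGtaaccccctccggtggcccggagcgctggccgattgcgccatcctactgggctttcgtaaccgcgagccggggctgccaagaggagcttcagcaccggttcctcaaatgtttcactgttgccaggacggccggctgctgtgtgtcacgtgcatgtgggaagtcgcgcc
Csf2ra: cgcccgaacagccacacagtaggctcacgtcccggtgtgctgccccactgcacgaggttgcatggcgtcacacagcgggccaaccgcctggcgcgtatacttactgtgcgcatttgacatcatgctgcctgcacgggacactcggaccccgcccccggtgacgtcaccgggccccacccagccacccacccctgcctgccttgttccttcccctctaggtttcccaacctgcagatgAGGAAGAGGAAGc
The Csf2rb2 promoter held TTCTGAGAA at bases 15 to 7 before the start, and in that of Csf2ra a pair of AGGAAG matches lay side by side at bases 13 to 2 before it. The promoter of Csf2rb2 had a GC content of 56.4%, and the 6 promoters had a median of 65.6% beside 52.4% over all promoters.

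For each of the 7 genes, the gene with the most similar pair of values was found by the Euclidean distance of log2(RPKM + 1) over the 2 libraries among 16777 genes above 0. With 2 libraries this describes level and ratio and nothing more. The nearest were Fabp5 to Csf2rb (distance 0.08), Hdlbp to Csf2ra (0.01), Atp11a to Csf2rb2 (0.06), Kdm2a to Kit (0.02), Fez2 to Il3ra (0.03), Gngt2 to Il6st (0.02) and Mir6935 to Il6ra (0.04). Within a distance of 0.1 lay 27 genes for Kit and 1 for Csf2rb.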

How the data were processed

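The 2 RNA-seq libraries of 1 group, from RNA extracted on columns with DNase treatment and prepared with the TruSeq RNA kit per the labels' protocols, were compared. The authors deposited 1 table of RPKM values with a column per library, matched to the samples by name. The submitters' processing notes name Trimmomatic 0.32, TopHat2, HTSeq and edgeR with build mm9. No source used here gives the annotation, gene lengths, strand setting or library sizes. Of 24015 rows, 27 with date-like names (0.109% of the summed RPKM in each library) were left out, leaving 23988 genes.

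Levels were compared as log2(RPKM + 1) with a pseudocount of 1, within libraries for pairs of chains and between libraries for genes with a mean of 1 RPKM or more, which understates ratios of low genes. The fold limit was 1.5. The members and lists were chosen with earlier results of these data known. Named genes were the 7 members, the gene nearest to each, the 3 highest detected genes of each pathway list, those past 1.5-fold where a list had 5 or fewer, and any gene a count of 5 or fewer refers to. From the marker lists, only some genes are named.

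Total depth is not known. The steps of the RPKM values gave the ratio of library sizes, replicate 2 over replicate 1, as 0.962 (474 genes with equal reads, tolerance 1e-05), and with it the smallest whole reads per gene (tolerance 1e-09). This size may include a normalisation factor. The match is weaker for Csf2rb, whose read numbers are large, and may be accidental. Sequences came from GENCODE vM21 and RefSeq, aligned with Biopython 1.88. Python 3.11.15 was used with pandas 2.3.3 and SciPy 1.17.1. Alternatives were another pseudocount, other filters, folds and scalings, single libraries and the sum of the beta genes.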

Additional observations from a re-analysis of the deposited data

How the results depend on the processing

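Of 11 differences between chains recomputed with a pseudocount of 0.1 or with the sum of Csf2rb and Csf2rb2, 9 moved by no more than 1 SD and no call changed. Scalings nearly cancel within a library, and a single library cannot move a mean of 2 by 1 SD, so neither says anything about stability. With the sum of Csf2rb and Csf2rb2 in place of Csf2rb, the difference from Il3ra was 4.80 and that from Il6st 4.83, as the sum is larger by construction. At 2-fold, 1 of the 7 genes, Il6ra, was past the limit. Scaled to the same median ratio, 5 were past 1.5-fold, Csf2rb being added. No member's log2 ratio changed sign under the 3 scalings or the pseudocount of 0.1. Receptors sharing a chain had 4 detected genes at 0.5 RPKM and 1 at 5 RPKM, and kinases related to Kit had 1 at 5 RPKM. Leaving out a library is not possible for a ratio between the 2. No paired analysis was possible because there is 1 group. Each side of a ratio is 1 library, and the total depth is not known.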
